A study of Mus musculus with 2 samples.

Results

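The regions described here are 475 acetylated sites that were called in colonic macrophages lacking Tle4 and had no called counterpart nearby in control macrophages. Each is a peak summit, a position of 1 bp, in the list deposited for the Tle4cKO library. A summit on chromosomes 1 to 19 or X was taken when no summit of the WT list lay within 500 bp. This left 475 of 2341 Tle4cKO summits, or 20.3%. The WT list held 10460 summits on the same chromosomes, and 82.1% of them had no Tle4cKO summit within 500 bp. The sites were chosen by the measured distance to the nearest called WT summit, so the absence of a WT summit within that limit is a description and not a result.

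The Tle4cKO library came from C57BL/6 mice of genotype Tle4f/f Lyz2-Cre and the WT library from C57BL/6 mice of genotype Lyz2-Cre, so both carried the Cre transgene. All were male and 11.1 weeks old, and sorted Siglec-F-negative, Ly6C-low, CD64-positive colonic macrophages of 4 mice per genotype were pooled into 1 library each. Lyz2-Cre is active across the myeloid lineage (neutrophils as well as macrophages), so the deletion is not limited to gut macrophages. Acetylated lysine 27 of histone H3 (H3K27ac) was profiled by CUT&Tag, in which an antibody guides a transposase to marked chromatin. With 1 library per genotype there was no replicate and no test between genotypes, and the intervals given are exact 95% intervals that cover counting error alone. Read depth is unknown, and the Tle4cKO list is the shorter one. A site without a WT summit was not called there, which does not show that it lacked the mark in WT.

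H3K27ac is laid down by acetyltransferases such as p300 and CBP at active promoters and enhancers, where it flanks the stretch of open DNA that transcription factors occupy. Tle4 is a Groucho corepressor. It has no DNA-binding domain of its own, is brought to genes by factors such as RUNX, TCF/LEF and Hes proteins, and works in part with histone deacetylases, which remove this mark. Colonic macrophages are renewed from blood monocytes and are known for a tolerant response to gut bacteria.

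Of these 475 summits, 30 lay inside one of the 300-base promoter windows listed by RefSeq for protein-coding genes (GRCm38.p6, the assembly of mm10), which run from 250 bases before a transcription start to 50 after it. They were 24.8% of the 121 Tle4cKO-only summits within 1 kb of a listed start, against 30.5% of such shared Tle4cKO summits. On chromosomes with listed starts, 26.1% of Tle4cKO-only and 51.2% of shared Tle4cKO summits lay within 1 kb of one. Promoters were thus a smaller part of this class than of shared summits. The 5 with the highest scores among these 30 are shown. The highest-scoring site within 1 kb of a start, Nt5dc1 (9.31, 107 bp downstream), lay outside the windows. So did Uhrf1bp1l (7.78, 181 bp downstream) and Grk4 (7.31, 139 bp downstream). Bank1 and Ifi207 are shown as examples with few CG dinucleotides, picked after their values were seen. Each sequence runs 5′ to 3′ along the gene, and the 21 capitals are centred on the Tle4cKO summit.
Hnrnpr: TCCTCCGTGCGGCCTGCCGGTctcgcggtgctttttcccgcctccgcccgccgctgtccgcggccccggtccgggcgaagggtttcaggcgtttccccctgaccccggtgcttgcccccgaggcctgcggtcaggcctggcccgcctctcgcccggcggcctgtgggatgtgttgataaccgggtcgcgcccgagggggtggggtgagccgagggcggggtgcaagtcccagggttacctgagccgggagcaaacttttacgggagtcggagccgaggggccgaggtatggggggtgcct
Snupn: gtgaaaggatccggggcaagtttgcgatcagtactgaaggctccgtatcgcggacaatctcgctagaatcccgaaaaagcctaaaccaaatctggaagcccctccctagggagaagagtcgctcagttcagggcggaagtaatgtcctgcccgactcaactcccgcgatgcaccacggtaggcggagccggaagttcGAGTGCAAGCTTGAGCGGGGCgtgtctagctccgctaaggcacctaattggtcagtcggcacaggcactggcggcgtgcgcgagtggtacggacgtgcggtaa
Rplp2: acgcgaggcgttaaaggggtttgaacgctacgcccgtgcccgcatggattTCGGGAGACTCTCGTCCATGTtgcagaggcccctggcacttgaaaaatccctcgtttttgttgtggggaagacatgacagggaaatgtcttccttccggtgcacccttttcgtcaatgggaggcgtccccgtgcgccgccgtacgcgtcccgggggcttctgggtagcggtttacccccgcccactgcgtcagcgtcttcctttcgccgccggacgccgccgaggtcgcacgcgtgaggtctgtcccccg
Pomt2: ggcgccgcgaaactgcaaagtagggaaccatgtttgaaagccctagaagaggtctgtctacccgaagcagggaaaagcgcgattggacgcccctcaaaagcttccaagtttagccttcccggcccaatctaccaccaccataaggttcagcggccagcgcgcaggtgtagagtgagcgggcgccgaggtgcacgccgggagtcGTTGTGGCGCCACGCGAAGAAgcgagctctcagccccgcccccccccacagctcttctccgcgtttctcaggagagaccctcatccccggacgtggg
Psmd13: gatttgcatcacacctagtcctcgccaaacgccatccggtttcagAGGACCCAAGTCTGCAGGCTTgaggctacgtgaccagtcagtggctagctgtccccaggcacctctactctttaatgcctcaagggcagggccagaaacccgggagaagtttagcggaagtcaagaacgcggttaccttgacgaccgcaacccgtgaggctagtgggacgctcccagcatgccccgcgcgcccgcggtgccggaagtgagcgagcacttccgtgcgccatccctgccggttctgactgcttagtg
Bank1: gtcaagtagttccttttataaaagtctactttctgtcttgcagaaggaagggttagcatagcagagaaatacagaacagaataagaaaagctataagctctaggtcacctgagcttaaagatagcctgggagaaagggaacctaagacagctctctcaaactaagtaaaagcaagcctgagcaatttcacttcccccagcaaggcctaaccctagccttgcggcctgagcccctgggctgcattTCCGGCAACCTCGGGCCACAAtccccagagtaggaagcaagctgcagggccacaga
Ifi207: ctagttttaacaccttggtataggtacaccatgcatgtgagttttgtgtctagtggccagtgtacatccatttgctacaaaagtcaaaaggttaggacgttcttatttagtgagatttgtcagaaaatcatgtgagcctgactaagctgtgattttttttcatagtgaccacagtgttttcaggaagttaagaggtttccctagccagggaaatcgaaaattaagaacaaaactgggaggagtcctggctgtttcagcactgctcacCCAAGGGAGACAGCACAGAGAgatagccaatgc

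The Hnrnpr window (chr4:136311348-136311647, plus strand) belongs to a gene for an RNA-binding protein of the hnRNP family and held 33 CG dinucleotides. The windows of Snupn, the import adaptor of snRNPs (chr9:56950658-56950957, plus strand, 27 CG), and Rplp2, a ribosomal stalk protein (chr7:141447401-141447700, plus strand, 34 CG), were also rich in CG. The Pomt2 window (chr12:87147853-87148152, minus strand), of a protein O-mannosyltransferase gene, held 26 CG, and the Psmd13 window (chr7:140882144-140882443, plus strand), of a proteasome lid subunit gene, held 22. Bank1, a B cell scaffold protein gene (chr3:136326017-136326316, minus strand), held 3 CG and the letters TATAAA. Ifi207, of the interferon-inducible Ifi200 family (chr1:173741760-173742059, minus strand), held 2 CG. Promoters both rich and poor in CG were present among these sites. At Pomt2 and Ifi207 a WT summit lay 599 and 641 bp from the Tle4cKO summit, so a WT call lay beside the same start. At the other genes shown the nearest WT summit lay 5539 bp (Bank1) or more away.

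At the nearest listed start within 1 kb, the 121 windows beside Tle4cKO-only summits had a median of 20 CG dinucleotides and a GC content of 59.3%. The 924 windows beside Tle4cKO summits shared with WT had a median of 21 CG and 60.7% GC, and the 3028 beside WT-only summits 22 CG and 61.3% GC. The 15881 windows with no summit of either list within 1 kb had a median of 8 CG and 54.7% GC. At least 20 CG were found in 50.4% of the windows beside Tle4cKO-only summits, in 58.8% of those beside shared ones, in 60.3% of those beside WT-only ones and in 28.5% of those with no summit. The promoters of this class had a base composition near that of other marked promoters. The sets are not separate, since a start beside summits of more than 1 class could count in each. At 35 starts a Tle4cKO-only summit came with a WT summit within 2 kb. A summit can have its start within 1 kb and lie outside the window, and windows of neighbouring genes can overlap.

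Short motifs were searched on both strands of the same windows, as letters alone. The GC box GGGCGG was found in 64.5% (55.2 to 73.0%) of windows beside Tle4cKO-only summits, 63.1% of those beside shared summits and 46.6% of all windows. The ETS letters CCGGAAG were found in 21.5% (14.5 to 29.9%), against 25.2% beside shared summits and 11.7% of all windows. Of the factors that can bring Groucho proteins to DNA, the RUNX letters TGTGGT were in 15.7% (9.73 to 23.4%) of windows beside Tle4cKO-only summits, 12.7% of those beside shared summits and 14.7% of all windows. The TCF/LEF letters TCAAAG were in 10.7% (5.85 to 17.7%), against 12.2% and 14.4%. The remaining motifs were CCAAT (NF-Y, 43.0%, against 39.0% beside shared summits and 38.5% of all windows), CACGTG (E-box, 9.09%, against 10.4% and 7.91%), TGGGAA (RBPJ, 22.3%, against 22.2% and 24.2%), TGACTCA (AP-1, 4.13%, against 4.44% and 4.69%) and TATAAA (9.09%, against 5.41% and 12.7%). For each of the 9 motifs the interval for the Tle4cKO-only class held the share beside shared summits.

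The first question was how strong these sites were within their own list. Tle4cKO-only summits had mostly low scores, where the score is the authors' value per peak. Their median score was 3.32, against 4.25 for Tle4cKO summits shared with WT, and their scores ran from 1.53 to 14.4. Their median rank was 1595 of 2341. Of the 100 highest Tle4cKO summits 1 was a Tle4cKO-only summit, of the 200 highest 8 were, and of the 1000 highest 136 were. In the lowest decile of Tle4cKO scores 39.4% of summits (33.1 to 46.0%) had no WT summit within 500 bp, and in the highest decile 4.27% (2.07 to 7.72%). The share did not fall evenly: it was 22.6% in the seventh decile, above the 17.4% and 17.1% of the fifth and sixth.

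**Figure D1:**
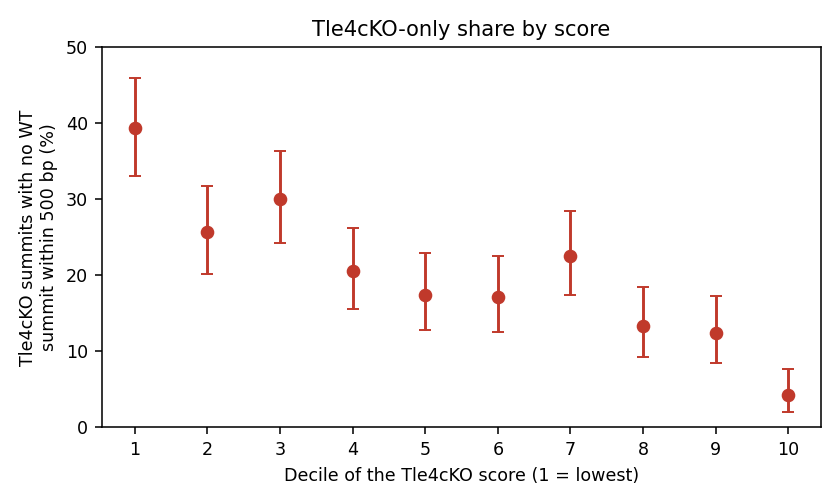
Share of Tle4cKO summits with no WT summit within 500 bp (vertical axis, %) in each decile of the Tle4cKO score (horizontal axis, lowest to highest); bars are exact 95% intervals for counting error. The share is 39.4% in the lowest decile and 4.27% in the highest.

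Many scores were repeated exactly. Of the 475 Tle4cKO-only summits 405 (85.3%) had a score that another Tle4cKO summit also had, as did 1391 of 1866 shared ones (74.5%). A score of 2.96 was held by 26 Tle4cKO summits, 16 of them Tle4cKO-only, which lay in gene bodies, between genes and at gene ends. Among higher values, 6.57 was held by 9 summits, 4 of them Tle4cKO-only: those in Lin28b and Kif21a and those nearest to Dcaf12l2 and Tsx. Ranks within such ties carry no order.

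The second question was where the sites lay. Tle4cKO-only summits were spread over gene bodies, gene ends and intergenic DNA, while shared Tle4cKO summits were mostly at gene ends. Gene ends here are positions up to 1 kb from the first or last base of a protein-coding gene, since the gene table has no strand. Listed starts further inside a gene do not count as its end. Some gene-body summits therefore lay within 1 kb of a listed start, as at Snupn, Tpm3 and Kdm4c. At gene ends lay 143 Tle4cKO-only summits (30.1%, 26.0 to 34.5%), against 983 shared Tle4cKO summits (52.7%, 50.4 to 55.0%). In gene bodies lay 188 (39.6%, 35.2 to 44.1%), against 517 shared ones (27.7%), and 144 (30.3%, 26.2 to 34.7%) were intergenic, against 366 shared ones (19.6%). WT-only summits lay between: 39.3% (38.3 to 40.3%) at gene ends, 36.1% in gene bodies and 24.6% between genes. The gene-end intervals of the 3 classes did not overlap, but they cover counting error alone and are no test between genotypes. Of all Tle4cKO summits 48.1% lay at gene ends, and of all WT summits 41.6%. Of WT summits with a Tle4cKO summit within 500 bp, 52.4% lay at gene ends. In both lists, then, shared summits lay at gene ends more often than those of 1 list only, so the direction of this difference is not particular to Tle4cKO-only sites. Tle4cKO-only and WT-only summits come from lists of unlike length and were not matched by score.

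**Figure D2:**
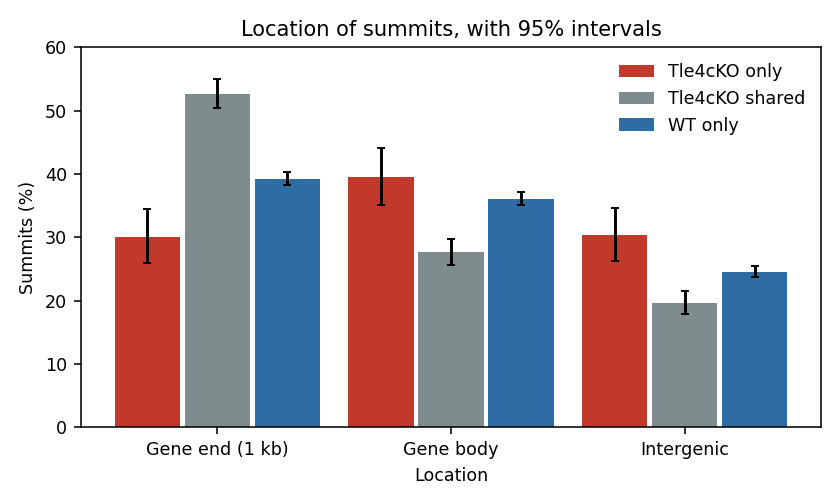
Share of summits (vertical axis, %) at gene ends, in gene bodies and between genes for Tle4cKO-only, Tle4cKO shared and WT-only summits, with exact 95% intervals. Tle4cKO-only summits are at gene ends in 30.1% of cases, shared Tle4cKO summits in 52.7% and WT-only summits in 39.3%.

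The lower share at gene ends was present at every level of score. In the lowest quartile of Tle4cKO scores 33.5% of 200 Tle4cKO-only summits lay at gene ends, against 50.3% of 388 shared ones. In the highest quartile the shares were 30.2% (18.3 to 44.3%) of 53 and 49.0% (44.6 to 53.3%) of 525. The 2 quartiles between gave 29.5% and 24.5% for Tle4cKO-only summits and 54.0% and 57.4% for shared ones. Counted the other way, 12.7% of Tle4cKO summits at gene ends, 26.7% of those in gene bodies and 28.2% of intergenic ones had no WT summit within 500 bp.

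Between genes, Tle4cKO-only sites were about as remote as shared ones. Of the 144 intergenic ones, 34 (23.6%) lay within 10 kb of a protein-coding gene and 47 (32.6%) over 50 kb away, against 24.6% and 33.1% of shared intergenic summits. Their median distance to the nearest gene was 28710 bp. In gene bodies the median distance to the nearer end of the gene was 15242 bp, and 37 of 188 lay over 50 kb from either end. Inside a lncRNA gene lay 47 of the 475 (9.89%, 7.36 to 12.9%), against 7.45% of shared Tle4cKO summits and 10.4% of WT-only ones. Inside a pseudogene lay 9 (1.89%, 0.87 to 3.57%), against 1.13% and 0.687%.

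**Figure D3:**
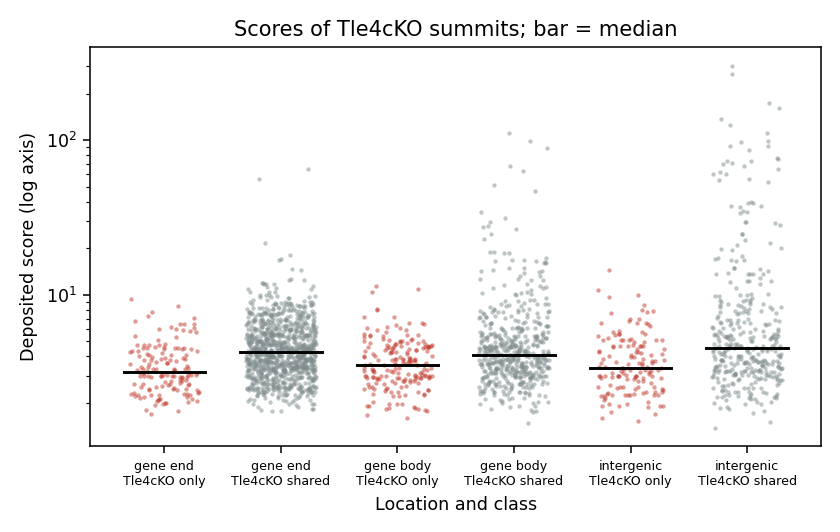
Deposited score (vertical axis, log scale) of each Tle4cKO summit by location, with Tle4cKO-only summits left of shared ones in each pair and a bar at the median. Tle4cKO-only medians are 3.18 at gene ends, 3.51 in gene bodies and 3.35 between genes; the scores above 14.4 all belong to shared summits.

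The sites were found on every chromosome. The share of Tle4cKO summits with no WT summit within 500 bp was highest on the X chromosome, at 34.1% (20.5 to 49.9%, 15 of 44), and on chromosome 15, at 30.4% (24 of 79). It was lowest on chromosomes 11 (15.1%, 23 of 152) and 19 (15.2%, 10 of 66). Most intervals held the 20.3% of the whole list. Those of the X chromosome and chromosome 15 lay just above it, among 20 chromosomes examined.

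The third question was how far each site lay from the nearest WT summit. For description, the sites were split at 5 kb into a near group and a distant group. The rule itself sets the lower edge of the near group, and the distances of shared summits ran up to 499 bp. Whether the near group is more than the continuation of the shared summits past the limit was not tested. Of the 475 summits, 117 (24.6%, 20.8 to 28.8%) had a WT summit within 5 kb. Of these 117, 87 had it within 1 kb, 18 between 1 and 2 kb and 12 between 2 and 5 kb, and 37 lay within 600 bp, just past the limit. The other 358, or 15.3% of all Tle4cKO summits, had none within 5 kb. The median over all 475 was 23805 bp, 309 (65.1%) lay up to 50 kb from a WT summit, and 9 lay over 1 Mb from any.

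**Figure D4:**
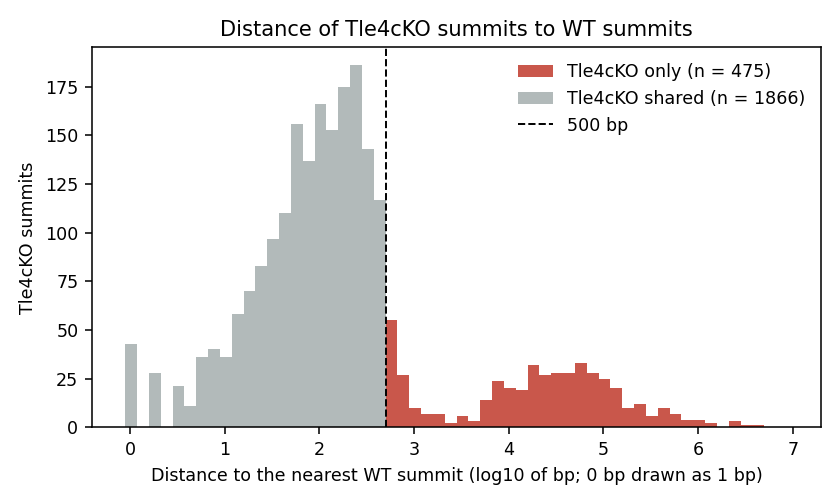
Number of Tle4cKO summits (vertical axis) by distance to the nearest WT summit (horizontal axis, log10 of bp); the dashed line is the 500 bp limit that separates Tle4cKO-only from shared summits. Of the Tle4cKO-only summits, 87 lie beyond the limit and up to 1 kb from a WT summit, and the other distances spread widely. The median over all 475, near ones included, is 23805 bp.

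The 5 summits just beyond the 500 bp limit lay 503 to 518 bp from a WT summit, in Mia3, Stard3, Mad1l1, Trip11 and Pag1. Their scores were 3.54, 2.67, 3.31, 7.12 and 2.93. The 5 just inside it lay 493 to 499 bp away, at Chrac1, Gm17434, Myof, Fkbp15 and Smim7, with scores of 4.87, 3.19, 2.63, 4.11 and 5.51.

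The near group differed little in score from the distant one, with medians of 3.51 and 3.31. Its WT neighbours had a median WT score of 4.95, near the 4.47 of the whole WT list, and ran from 2.36 to 57.9. At 20 of the 117 (17.1%, 10.8 to 25.2%) that WT neighbour had another Tle4cKO summit within 500 bp, so the Tle4cKO-only summit was a second one beside a shared site. One such summit lay at position 13591158 of chromosome 17 (score 8.52), 587 bp from a shared WT summit of 38.5, and another at position 118059183 of chromosome 10 (score 7.91), 764 bp from one of 14.8. Within gene bodies it held for Itgad, an integrin chain gene (score 5.47, with a WT summit of 18.6 at 819 bp), and Nsun4, a mitochondrial rRNA methyltransferase gene (5.69, with 9.26 at 605 bp). Of all Tle4cKO-only summits 15 (3.16%, 1.78 to 5.16%) had another Tle4cKO summit within 1 kb, against 27 of 1866 shared ones (1.45%, 0.956 to 2.10%).

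Fewer of the sites than of shared ones lay near transcription starts. Of the 464 Tle4cKO-only summits on chromosomes with listed starts, 121 (26.1%) lay within 1 kb of one, against 925 of 1805 shared Tle4cKO summits (51.2%). In the WT list the shares were 37.4% of WT-only and 51.3% of shared summits. Of these 121, 85 (70.2%, 61.3 to 78.2%) lay downstream of the start. The median position of all 121, upstream ones included, was 163 bp past the start. For shared Tle4cKO summits the values were 69.8% and 145 bp, and for WT-only summits 67.1% and 139 bp.

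**Figure D5:**
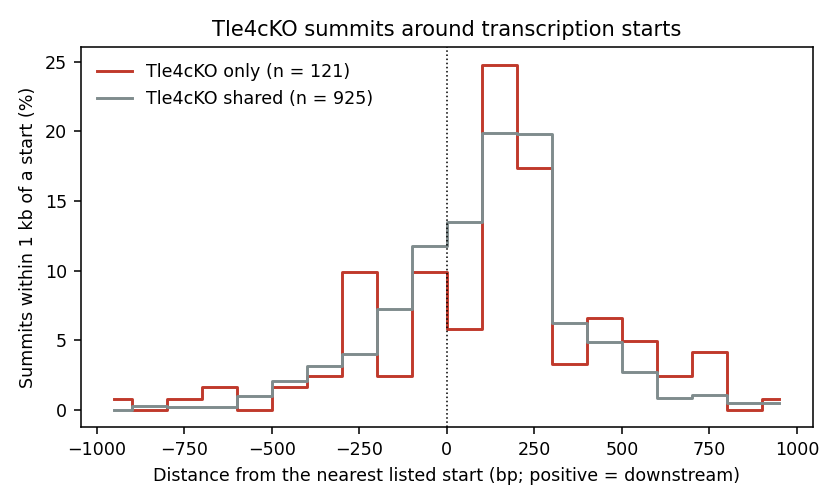
Share of summits within 1 kb of a listed start (vertical axis, %) per 100 bp of distance from it (horizontal axis, positive downstream), for 121 Tle4cKO-only and 925 shared Tle4cKO summits. Both have their highest share downstream of the start, with medians of 163 and 145 bp.

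At 35 starts a Tle4cKO-only summit came with a WT summit within 2 kb, and at 23 of them (65.7%, 47.8 to 80.9%) the pair lay on opposite sides of the start. The rule keeps the pair over 500 bp apart, which favours opposite sides, so this is a description. Grk4 is a kinase gene of G protein-coupled receptors, with an end of Nop14 within 1 kb of the Tle4cKO summit. There the Tle4cKO summit (score 7.31) lay 139 bp downstream and the WT summit (3.81) 426 bp upstream. At Kdm4c, a histone demethylase gene, they lay 517 bp downstream (3.97) and 328 bp upstream (7.61). At Uhrf2, a ubiquitin ligase gene, they lay 245 bp downstream (2.57) and 333 bp upstream (5.37). The order was the other way at Il2rg, the common gamma chain of cytokine receptors, with the Tle4cKO summit 383 bp upstream (2.21) and the WT summit 228 bp downstream (3.49), and at Nagk, a sugar kinase gene, with 242 bp upstream (3.24) and 443 bp downstream (5.29). At Uhrf1bp1l both lay downstream, at 181 bp in Tle4cKO (7.78) and 709 bp in WT (5.86).

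Next the genes beside the sites were examined. In all, 494 of 21631 protein-coding genes (2.28%) had a Tle4cKO-only summit in the gene or within 10 kb, and 182 (0.841%) had one and no WT summit in that window. Of the 143 summits at gene ends, 70 (49.0%) were nearest to a gene with no WT summit in it or within 10 kb. The same was true of 51 of 188 in gene bodies (27.1%), of 65 of 144 between genes (45.1%) and of 186 of all 475 (39.2%). Over all Tle4cKO summits, shared ones included, the shares were 6.22% at gene ends, 7.23% in gene bodies, 36.7% between genes and 13.2% in total. Counted by gene and not by summit, 60.4% of all protein-coding genes had no WT summit in that window. Since the sites were chosen for lacking a WT summit nearby, these shares are a description.

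Among the 15 highest gene-end sites, 7 lay at genes without any WT summit in that window, as did 49.0% of all 143 gene-end sites. The rule of selection favours such genes, so the count is a description. Nt5dc1 had the highest score of them, 9.31 (rank 173), at position 34418444 of chromosome 10, with the nearest WT summit 136081 bp away. Hnrnpr had 8.42 at position 136311358 of chromosome 4, 25671 bp from a WT summit. Lars2, the mitochondrial leucyl-tRNA synthetase gene, had 7.04 at position 123461942 of chromosome 9, with a WT summit 67994 bp away. This Lars2 site lay 733 bp inside an end of the gene. Bud23, an rRNA methyltransferase gene, and Dnajc30, a mitochondrial J-domain protein gene, shared a summit of 6.46 at position 135064309 of chromosome 5, 54429 bp from a WT summit. Nup54, a nucleoporin gene (6.04), Gpatch1 (5.97) and Nt5c3, a pyrimidine nucleotidase gene (5.86), lay 59341, 78518 and 126284 bp from one. The Lars2, Gpatch1 and Nt5c3 sites had no listed start within 1 kb, so they were not shown to lie at promoters. At these 7 sites nothing was called in the WT list for at least 25671 bp.

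The other 8 of the 15 had WT summits closer by. Rbm15, an RNA-binding protein gene of the RNA methylation machinery, had a Tle4cKO summit of 6.11 and a WT summit of 10.3 at 838 bp. Uhrf1bp1l and Grk4 are given above with their WT summits 528 and 565 bp away. Aldh1b1, a mitochondrial aldehyde dehydrogenase gene, had 5.88 with a WT summit of 4.13 at 3507 bp. Pnp, the purine nucleoside phosphorylase gene, had 6.47 with a WT summit of 2.63 at 6286 bp, and Dbr1, the lariat debranching enzyme gene, had 6.21 with one of 12.4 at 7451 bp. Resf1, a retroelement silencing factor gene (6.71), and Hyou1, an endoplasmic reticulum chaperone gene (6.49), lay 14296 and 17250 bp from a WT summit. The Dbr1 and Hyou1 sites also had no listed start within 1 kb. Of the 143 gene-end sites, 24 (16.8%, 11.1 to 23.9%) lay at the ends of more than 1 gene, against 21.3% of shared gene-end summits. They include Pidd1 with Rplp2 (4.71), Sirt3, a mitochondrial deacetylase gene, with Psmd13 (4.55), and Dtl with Ints7 (5.09).

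The 10 highest gene-body sites lay in genes of varied function. The highest, 11.4 at position 3614718 of chromosome 2, lay in the predicted gene LOC108168726, 6980 bp from a WT summit of 2.36. Dnah14, an axonemal dynein gene, had 10.8, with a WT summit 109055 bp away, and Ppp6r1, a regulatory subunit of protein phosphatase 6, had 10.5, with a WT summit of 10.4 at 985 bp. The gene 4921528I07Rik had 8.03, 148877 bp from a WT summit, and Sfi1, a centrin-binding protein gene, had 7.96, with one at 5361 bp. F13a1, the coagulation factor XIII A chain and a monocyte marker, had 7.17 at position 36978929 of chromosome 13, 152388 bp from a WT summit. Trip11, a golgin gene, had 7.12, and Lin28b, which blocks let-7 miRNA maturation, and Kif21a, a kinesin gene, had 6.57 each. Cnga3, a cone photoreceptor channel gene, had 6.48, with a WT summit at 67198 bp. In Dnah14, 4921528I07Rik, F13a1, Lin28b, Kif21a and Cnga3, no WT summit lay in the gene or within 10 kb. The same held for 27.1% of all 188 gene-body sites, and the 10 highest were not tested against that share.

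The highest intergenic sites included second summits beside shared sites: those on chromosomes 17 and 10 given above and that nearest to Apba2. The Apba2 site scored 10.7, 14202 bp from the gene and 4861 bp from a shared WT summit of 4.23. The site nearest to Cdh18, a cadherin gene, scored 9.90 and lay 183948 bp from it, with no WT summit for 2507225 bp. Sites nearest to Cecr2, a chromatin remodelling factor gene (9.60), Vmn1r157, a vomeronasal receptor gene (7.84), and Gm34521 (7.64) lay 101140, 1307785 and 732548 bp from a WT summit. The site nearest to Snx2, a sorting nexin gene, scored 7.74 and lay inside the pseudogene Gm1859. That nearest to Cd47, which encodes a signal that restrains macrophage engulfment, scored 6.99 but lay 118014 bp from it, inside Gm4827.

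Several sites lay at or near members of gene pairs or families. Fam177a and Fam177a2 each had a Tle4cKO-only summit at a gene end (2.70 and 3.03), with a shared WT summit 30397 and 30403 bp away (13.4 and 13.1). On chromosome 4, the sites nearest to Gm13283 (5.27) and Gm13279 (2.31) each had a WT summit at exactly 2903 bp (6.20 and 2.86). Pnp and the neighbouring Pnp2 each had one at an end (6.47 and 4.31). Reads from near-identical copies cannot be placed with certainty, and their part in these calls was not tested. Itpr2, an inositol trisphosphate receptor gene, had 2 Tle4cKO-only summits in the gene or within 10 kb (4.60 and 2.96), as did Chd9, a chromatin remodeller gene (4.21 and 2.63), Cntrl, a centriole protein gene (4.60 and 4.24), Stk10, a kinase gene (5.07 and 2.89), Cdk17, a cyclin-dependent kinase gene (3.11 and 1.67), and Sfi1 (7.96 and 3.84).

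Finally, lists of genes for macrophage function, for pathways that use Groucho proteins and for other cell types were set against the 2.28% of all protein-coding genes with a Tle4cKO-only summit in the gene or within 10 kb. The counts were 0, 1 or 2 genes in each of the 19 lists, too few to tell any list from this background. None of 6 Groucho family genes, 22 Groucho partner factors or 28 Notch pathway genes had one. Of 30 Wnt pathway genes 2 did, Dvl3, a transducer of the Wnt signal (4.04), and Znrf3, a ligase that removes Wnt receptors (3.32), each with WT summits in the window too. Of 33 NF-kB and Toll-like receptor genes 2 did, the IkB kinase gene Ikbkb (2.96) and Chuk (2.45, at the end of its neighbour Erlin1).

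Of 31 cytokine and chemokine genes 2 had a Tle4cKO-only summit. Il27, a cytokine gene, had one at its end (2.80), and Tgfb1, the gene of a tolerance-associated cytokine, had one 2676 bp outside the gene (4.25) with no WT summit nearer than 48786 bp. Of 38 interferon response genes 2 did: Gbp5, a guanylate-binding protein gene (5.35, 178 bp inside its end and 64937 bp from a WT summit), and Ifnar2, a chain of the type I interferon receptor (2.71, with a WT summit of 4.35 at 587 bp). Ciita, the class II transactivator, was the 1 of 15 MHC class II genes (2.31, 4638 bp outside the gene), and Ptprc, which encodes CD45, the 1 of 30 macrophage identity genes (4.45, in the gene body). Of 30 lysosome genes the 1 was Scarb2, through the Nup54 summit 6281 bp away. Among cell type markers, 1 of 15 monocyte genes (F13a1) and 2 of 20 B and plasma cell genes did. These 2 were Tnfrsf13b, a receptor of B cell survival factors (6.36, with no WT summit in the window), and Bank1 (3.03). As a check of the cell type, WT summits lay in this window at 14 of the 30 macrophage identity genes, 11 of 18 dendritic cell, 8 of 20 B and plasma cell, 5 of 14 endothelial, 4 of 19 T cell and 3 of 15 monocyte markers. They lay at 2 of 16 neutrophil, 2 of 12 eosinophil, 1 of 20 epithelial and 1 of 15 fibroblast and muscle markers, and at 39.6% of all protein-coding genes. The macrophage count was not tested against that share. These counts alone do not set macrophages apart from dendritic, B and plasma or endothelial cells. Summits cannot show whether Tle4 itself was deleted. None of 20 epithelial, 19 T cell, 16 neutrophil, 12 eosinophil, 15 fibroblast and muscle, 14 endothelial or 18 dendritic cell markers had a Tle4cKO-only summit in this window.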

How the data were processed

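H3K27ac CUT&Tag libraries of sorted colonic macrophages, 1 per genotype, were analysed. The authors deposited 1 list of summits of 1 bp per library, each with a score. The submitters' processing notes name cutadapt 1.14, Bowtie2 2.2.5 and mm10. How peaks were called, against what control and from how many reads is not given in the sources used here. Scores deposited by the authors start at 1.35, just above 1.3, the −log10 of 0.05, and scores were used to rank summits within a list. Such scores can grow with depth.

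Summits on chromosomes 1 to 19 and X were kept, which left out 9 Tle4cKO and 14 WT summits on Y and 2 and 4 on the mitochondrial chromosome, and positions were counted from 1. Distances were computed with NumPy 2.4.6 and pandas 2.3.3, and intervals (Clopper-Pearson) with SciPy 1.17.1. Genes came from NCBI RefSeq on GRCm38.p6; promoter windows, with strand, matched 17274 of 21631 protein-coding genes and none on chromosome 18. Location was planned by transcription start, but gene ends were used because the gene table has no strand. Of the 412 gene-list entries all matched. No list of high-signal regions was applied, so artefact signal at single sites was not tested. The distance step was tested on simulated summits.

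The members and lists were chosen with earlier results of these data known. Genes named are those nearest to the 15 highest-scoring members at gene ends and the 10 highest in gene bodies and between genes, those of the lists, those with 2 or more members, and the 5 on either side of the distance limit; 1 of the intergenic sites is not reported here. Others (start pairs, gene ends shared by several genes, second summits, gene pairs, promoter windows) were picked after their values were seen. Alternatives were other distances, windows and score minimums, a shortened WT list, merged summits, autosomes alone and listed starts.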

Additional observations from a re-analysis of the deposited data

How the results depend on the processing

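No paired analysis was possible because each genotype has 1 library and no result comes from a test. At a partner distance of 200 bp there were 950 Tle4cKO-only summits, of which 41.2% lay at gene ends, 34.9% in gene bodies and 23.9% between genes, and 62.3% had a WT summit within 5 kb. At 1 and 2 kb the share with a WT summit within 5 kb was 7.73% and 3.24%, as follows from the limit, while the number (388 and 370, and 358 at 5 kb) stayed within 1.5 times of 475 and the location shares stayed within their intervals. A score of at least 3 left 286 summits with a median of 4.30. A score of at least 5 left 82 with a median of 6.09; of these 23.2% lay at gene ends, 40.2% between genes and 29.3% within 5 kb of a WT summit. When the WT list was cut to its 2341 highest scores, 1346 Tle4cKO summits had no WT summit within 500 bp, so the class depends on how long the WT list is. A gene-end window of 500 bp gave 23.8% at gene ends and 45.1% in gene bodies, and one of 2 kb 34.7% at gene ends. Within 10 kb, 34.5% had a WT summit. Listed starts in place of gene ends, added after seeing the data, gave 26.1%. Depth is unknown, so no limit on the signal at a single site in WT can be given.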
